A study of Mus musculus with 10 samples.

Results

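The genes described here are the classical and nonclassical MHC class I heavy chain genes *H2-K1*, *H2-D1* and *H2-T23*, the light chain gene *B2m*, the peptide transporter and loading genes *Tap1*, *Tap2* and *Tapbp*, and the immunoproteasome subunit genes *Psmb8*, *Psmb9* and *Psmb10*. They were chosen by symbol as the core of the class I antigen presentation pathway. All 10 were found, in 11 of the 15900 rows of the table, because *Psmb9* is listed under 2 identifiers with the same value in every library. These 2 rows were taken as 1 gene. In the mm9 annotation 8 of the 10 lie on chromosome 17, and those are *H2-K1* (ENSMUSG00000061232, chr17:34132962-34137278, minus strand), *H2-D1* (ENSMUSG00000073411, chr17:35399675-35404444, plus strand), *H2-T23* (ENSMUSG00000067212, chr17:36166718-36169800, minus strand), *Tapbp* (ENSMUSG00000024308, chr17:34052844-34066235, plus strand), *Psmb9* (ENSMUSG00000024337 and ENSMUSG00000092299, chr17:34318932-34324697, minus strand), *Tap1* (ENSMUSG00000037321, chr17:34324498-34334170, plus strand), *Psmb8* (ENSMUSG00000024338, chr17:34334666-34338399, plus strand) and *Tap2* (ENSMUSG00000024339, chr17:34340472-34353266, plus strand). *B2m* lies on chromosome 2 (ENSMUSG00000060802, chr2:121973422-121978819, plus strand) and *Psmb10* on chromosome 8 (ENSMUSG00000031897, chr8:108459628-108462292, minus strand).

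The libraries were made by cap analysis of gene expression (CAGE), in which the capped 5′ ends of RNA are captured and sequenced. A tag thus gives the place where a transcript began. The tissue was the whole hippocampus of 10 male ICR mice, an outbred strain, 9 to 10 weeks old, which formed 5 groups of 2. The pre-SE mice had no seizures, and their label calls them untreated. The paper calls them naive in some places and controls in others, and says that control mice received saline in place of pilocarpine. The SE 6 h and SE 2 days mice had status epilepticus (SE) induced by pilocarpine, a muscarinic agonist, after methyl scopolamine, which shields the periphery from it, and their seizures were ended with diazepam. The SE + LEV 6 h and SE + LEV 2 days mice were treated in the same way and also received oral levetiracetam (LEV), an antiepileptic drug that binds the synaptic vesicle protein SV2A, after the diazepam, with further doses each day in the 2 days group. Pilocarpine is therefore common to the 4 groups with SE, and its part cannot be told apart from that of the seizures in any comparison with pre-SE. Whether these pre-SE mice received saline, methyl scopolamine or diazepam is not given clearly in the sources used here.

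MHC class I molecules show short peptides from inside the cell to CD8 T cells and natural killer cells. The peptides are cut by the proteasome, pumped into the endoplasmic reticulum by the TAP transporter, made of Tap1 and Tap2, and loaded with the help of tapasin, the product of *Tapbp*, onto a heavy chain that is paired with beta-2 microglobulin. Interferons raise the transcription of most of these genes and also that of the inducible subunits Psmb8, Psmb9 and Psmb10, which take the places of the constitutive catalytic subunits Psmb5, Psmb6 and Psmb7 and thereby form the immunoproteasome. In the healthy brain class I levels are low, glia raise them in inflammation, and neurons are known to use class I molecules in the pruning of synapses.

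Because CAGE reads transcription starts and most of these genes moved together, the promoter windows of 5 of them are shown first, each from 250 bases before to 50 bases after the start that RefSeq gives (GRCm38.p6), 5′ to 3′ along the gene's strand. *H2-K1* and *H2-D1* are the classical heavy chains, *B2m* is their partner, *Psmb8* had the largest fitted increase among the 10 genes from pre-SE to SE 2 days, and *Psmb9* shares its window with *Tap1*. Capitals mark matches, on either strand, to GGGNNTTCC (a form of the NF-kB site), GAANNGAAA (a form of the IRF site), TTCNNNGAA (the GAS site), TGACG (the core of a CRE site), CCAAT and TATAAA.
H2-K1: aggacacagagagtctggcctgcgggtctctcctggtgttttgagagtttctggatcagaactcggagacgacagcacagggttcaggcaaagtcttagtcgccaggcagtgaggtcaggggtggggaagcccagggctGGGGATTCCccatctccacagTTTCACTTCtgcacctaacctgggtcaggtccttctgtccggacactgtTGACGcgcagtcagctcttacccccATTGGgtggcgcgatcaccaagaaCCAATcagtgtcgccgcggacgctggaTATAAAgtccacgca
H2-D1: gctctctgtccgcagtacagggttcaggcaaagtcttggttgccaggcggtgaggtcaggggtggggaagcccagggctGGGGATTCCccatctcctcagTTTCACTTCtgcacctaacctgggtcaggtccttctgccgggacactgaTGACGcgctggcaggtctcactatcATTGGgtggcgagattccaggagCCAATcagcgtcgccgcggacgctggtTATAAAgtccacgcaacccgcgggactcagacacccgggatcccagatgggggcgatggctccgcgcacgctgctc
B2m: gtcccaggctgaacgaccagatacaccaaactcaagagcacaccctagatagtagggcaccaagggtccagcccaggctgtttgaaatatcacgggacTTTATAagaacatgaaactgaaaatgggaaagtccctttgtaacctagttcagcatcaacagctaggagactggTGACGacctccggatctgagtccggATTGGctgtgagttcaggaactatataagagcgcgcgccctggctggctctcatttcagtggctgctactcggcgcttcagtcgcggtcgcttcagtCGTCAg
Psmb8: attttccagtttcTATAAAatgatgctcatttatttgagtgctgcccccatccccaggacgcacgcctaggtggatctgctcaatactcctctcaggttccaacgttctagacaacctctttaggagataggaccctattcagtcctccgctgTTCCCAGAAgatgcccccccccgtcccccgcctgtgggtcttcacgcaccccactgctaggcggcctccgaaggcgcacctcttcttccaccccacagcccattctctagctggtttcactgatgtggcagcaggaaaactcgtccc
Psmb9: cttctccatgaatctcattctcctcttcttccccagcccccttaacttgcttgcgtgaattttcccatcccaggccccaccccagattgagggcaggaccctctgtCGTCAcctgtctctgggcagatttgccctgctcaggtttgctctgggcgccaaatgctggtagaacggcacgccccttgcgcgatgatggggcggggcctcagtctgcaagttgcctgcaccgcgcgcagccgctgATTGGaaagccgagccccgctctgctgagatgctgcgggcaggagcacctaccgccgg
Each window matched the mm9 sequence of its chromosome exactly and once, at chr17:34137243-34137542 (minus strand) for *H2-K1*, chr17:35399789-35400088 (plus strand) for *H2-D1*, chr2:121973173-121973472 (plus strand) for *B2m*, chr17:34334890-34335189 (plus strand) for *Psmb8* and chr17:34324226-34324525 (minus strand) for *Psmb9*.

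RefSeq windows were found for 9 of the 10 genes, the exception being *Tap2*. Where RefSeq gave several starts for *H2-K1*, the window furthest downstream was left out by choice. The positions given for *H2-K1* depend on that choice. The NF-kB and IRF motifs, as the letters given above, were found in the windows of *H2-K1* and *H2-D1* and in none of the other 7. Among all 32544 distinct promoter windows of the same length they were found in 5.85% and 7.57%, respectively. Forms of these sites with other spacing were not searched for, so a window without a match may still hold such a site. In *H2-K1* the NF-kB match ran from base -111 to -103 relative to the RefSeq start and the IRF match from -90 to -82, and in *H2-D1* they ran from -171 to -163 and from -150 to -142. The spacing between the motifs was thus the same in both genes, whose windows shared 214 of 361 aligned positions (59.3%) and a longest run of 47 bases. The GAS motif was found in *Psmb8* alone among the 9 windows and in 8.33% of all windows. TGACG was found in 5 of 9 (*H2-K1*, *H2-D1*, *B2m*, *Tap1* and *Psmb9*) and in 20.9% of all windows, CCAAT in 7 of 9 and 37.4%, and TATAAA in 4 of 9 and 13.6%. The TATAAA match ran from base -26 to -21 in *H2-D1* and, past the RefSeq start, from base 36 to 41 in *H2-K1*. It ran from -237 to -232 in *Psmb8* and, on the other strand, from -152 to -147 in *B2m*. Matches in the 9 windows did not overlap one another. *Psmb9* and *Tap1* are transcribed away from each other, and 275 of the 300 bases of their windows are the same stretch of chromosome 17. A match describes the letters of the reference window, and not the sequence of these outbred mice or the binding of a factor.

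Library depth, recovered from the CPM values, ran from 10540698 to 51710968 tags with a median of 26671413, and the detection limit used here, 3 tags, equalled 0.058 CPM in the deepest and 0.285 CPM in the shallowest library. Neuronal, astrocytic and microglial marker genes were detected in the libraries, as the hippocampus label says. Some of the 10 genes overlap other genes. *Tap1* and *Psmb9* share 200 bases on opposite strands, *Tapbp* overlaps *Zbtb22* on the same strand, and *H2-T23* overlaps *A930015D03Rik* on the other strand. *H2-K1*, *H2-D1* and the H2-Q and H2-T genes are near-identical copies of one another in places, and how tags that fit several genes were counted is not given in the sources used here, so the split of tags among heavy chain genes is uncertain. Whether these outbred mice differ from the mm9 sequence in these genes was not examined.

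At 2 days after SE both classical heavy chain genes, the 3 transport and loading genes and the 3 immunoproteasome genes were higher. Of the 10 genes, these 8 rose against pre-SE, and 0 fell, where 5.07% of the 15851 genes tested were called higher and 0.593% lower (limma on log2(CPM + 0.1) over all 10 libraries, Benjamini-Hochberg adjusted p of at most 0.05). The median logFC, the log2 fold change on that scale, was 2.57 over the 10 genes and -0.03 over all genes tested. In 9 of the 10 genes both SE 2 days mice lay above both pre-SE mice, as they did in 26.3% of all genes. The 2 genes that did not pass the test were *B2m* and *H2-T23*.

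Among the heavy chains, *H2-K1*, a classical class I molecule, was at 18.1 and 26.8 CPM in the pre-SE mice, 31.6 and 43.7 CPM at 6 h and 225 and 254 CPM at 2 days. Both SE 2 days mice lay far above the SE 6 h and pre-SE mice, and the difference from pre-SE was a logFC of 3.43 ± 0.39 (SE), a 10.8-fold increase (limma adjusted p = 0.00137). *H2-D1*, the other classical heavy chain found, was at 39.3 and 63.1 CPM before SE, 52.7 and 82.2 CPM at 6 h and 197 and 276 CPM at 2 days. The 6 h mice overlapped with the pre-SE mice and the 2 days mice did not, with a logFC of 2.23 ± 0.50 (limma adjusted p = 0.03). *H2-T23*, which encodes the nonclassical molecule Qa-1 that is read by CD94/NKG2 receptors, was at 0.93 and 1.26 CPM before SE and at 0.55 and 14.8 CPM at 2 days. The SE 2 days mice lay on either side of the pre-SE mice, and the fitted logFC of 1.40 ± 1.82 did not pass the test (limma adjusted p = 0.739).

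The light chain gene *B2m* was at 27.3 and 62.4 CPM before SE, 37.1 and 26.0 CPM at 6 h and 334 and 286 CPM at 2 days. Both SE 2 days mice were above all pre-SE and SE 6 h mice. The logFC of 2.90 ± 0.76 nevertheless missed the threshold (limma adjusted p = 0.0545), and its adjusted p rose to 0.322 without pre-SE replicate 1, 0.158 and 0.26 without SE 2 days replicate 1 or 2, and 0.0887 without a mean-variance trend. It passed when only the SE 2 days and pre-SE mice were fitted (adjusted p = 0.00888) or when either SE + LEV 2 days mouse was left out of the shared spread (adjusted p = 0.00476 without replicate 1 and 0.00456 without replicate 2).

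*Tap1*, one subunit of the peptide transporter, was near the limit of detection before SE, at 0.34 and 0.29 CPM (10 and 15 tags), and reached 4.88 and 2.58 CPM (115 and 54 tags) at 2 days. The logFC was 3.14 ± 0.44 (limma adjusted p = 0.00315). *Tap2*, the other subunit, went from 6.52 and 3.79 CPM to 23.1 and 12.8 CPM, a logFC of 1.77 ± 0.38 (limma adjusted p = 0.0236). The groups did not overlap for either gene. The ratio of *Tap1* to *Tap2* within a mouse was 0.0522 and 0.0765 before SE, 0.0771 and 0.0758 at 6 h, and 0.211 and 0.202 at 2 days. *Tapbp*, whose product tapasin holds the empty heavy chain at the transporter, was at 37.5 and 32.8 CPM before SE and at 72.4 and 71.4 CPM at 2 days. Its increase was the smallest of the 8, with a logFC of 1.04 ± 0.25, a 2.05-fold increase (limma adjusted p = 0.0414).

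All 3 immunoproteasome genes rose. *Psmb8*, which encodes the inducible chymotrypsin-like subunit, was at 2.10 and 3.27 CPM before SE, 2.73 and 4.11 CPM at 6 h and 57.5 and 35.2 CPM at 2 days. Both 2 days mice were many times above every earlier mouse, with a logFC of 4.05 ± 0.43, a 16.6-fold increase (limma adjusted p = 0.0013). *Psmb9* was at 1.10 and 0.79 CPM before SE and at 11.96 and 6.97 CPM at 2 days, a logFC of 3.16 ± 0.41 (limma adjusted p = 0.00228). *Psmb10*, the inducible trypsin-like subunit, started from a higher level of 26.3 and 28.2 CPM and reached 76.1 and 55.4 CPM, a logFC of 1.25 ± 0.29 (limma adjusted p = 0.0326).

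**Figure D1:**
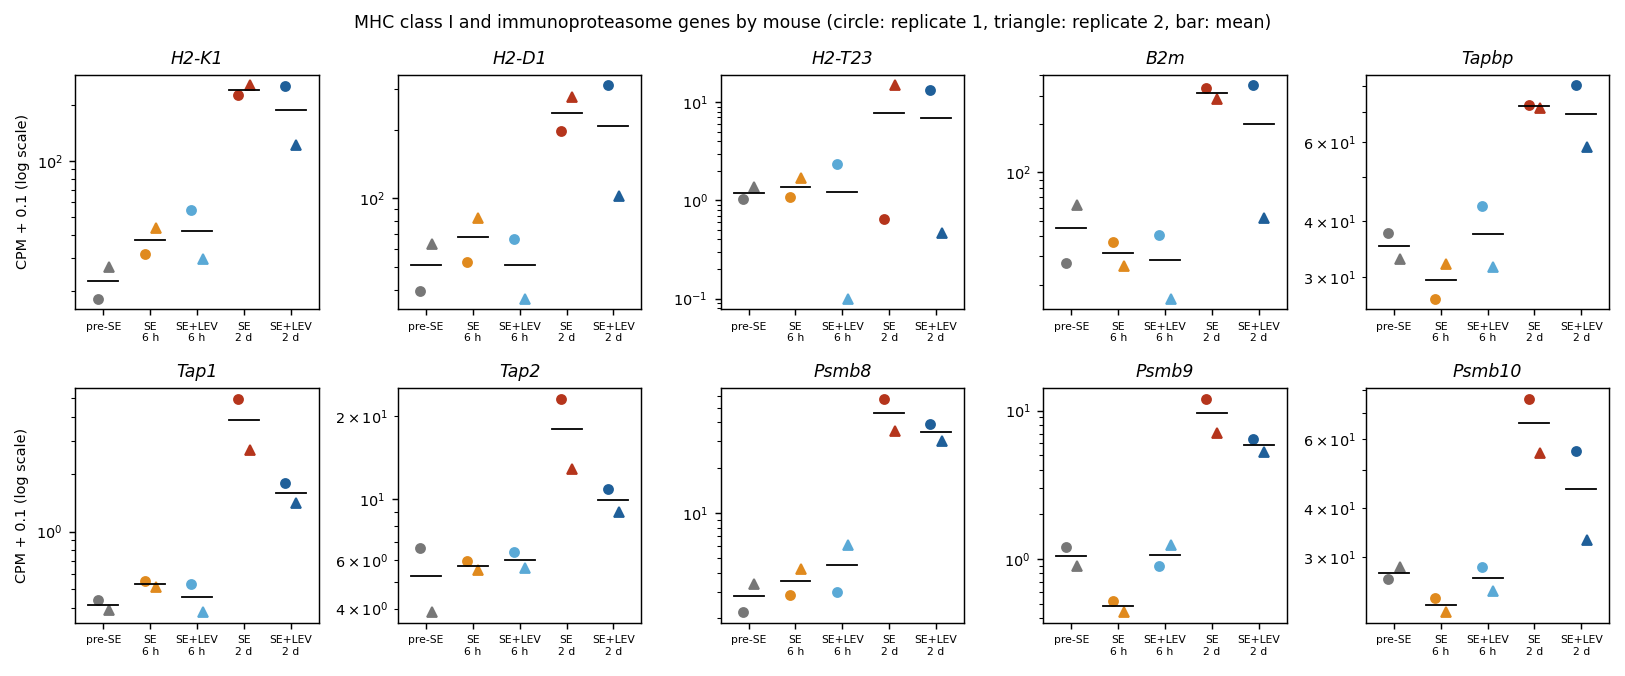
CPM + 0.1 on a log axis for each of the 10 genes in each mouse of the 5 groups (circle, replicate 1, triangle, replicate 2, bar, group mean + 0.1). The SE 2 days mice lie above the pre-SE mice in 9 genes, the exception being *H2-T23*, and replicate 2 of SE + LEV 2 days is the lowest of the 4 mice at 2 days in all 10.

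With 2 mice a group these calls lean on the spread shared over the 5 groups, and an exact permutation test of 2 against 2 mice could not go below p = 0.333. *H2-K1*, *Tap1*, *Psmb8* and *Psmb9* were called with each of the 10 mice left out in turn, with adjusted p of at most 0.0186, 0.0256, 0.014 and 0.0208. Fewer of the 10 genes were called without pre-SE replicate 1, pre-SE replicate 2, SE 2 days replicate 1 or SE 2 days replicate 2. Fewer of all genes tested were called higher in each of these fits too, so the loss is not particular to the 10. In these 4 fits the adjusted p ran from 0.0599 to 0.25 for *H2-D1*, from 0.118 to 0.229 for *Tapbp* and from 0.0891 to 0.187 for *Psmb10*, and *Tap2* missed the threshold without pre-SE replicate 2 (0.154) and without SE 2 days replicate 1 (0.116). *Tapbp* also missed it without SE 6 h replicate 1 (0.0551) or replicate 2 (0.0557).

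At 6 h after SE none of the 10 genes passed the test, where limma called 2.76% of all genes higher and 0.202% lower. *Psmb9* was the 1 gene of the 10 with an unadjusted p under 0.05, and its estimate was below 0. Among all 15851 genes tested, 1460 with estimates above 0 and 1349 below 0 had such a p. The median logFC was 0.18 over the 10 genes and -0.13 over all genes, and rescaling the libraries by the median of ratios moved the latter to -0.005. *H2-K1* had the highest estimate, 0.75 ± 0.39 (limma adjusted p = 0.35), and both SE 6 h mice lay above both pre-SE mice. *Psmb9* had the lowest, -1.11 ± 0.41 (limma adjusted p = 0.199), with 0.42 and 0.34 CPM (13 and 5 tags) at 6 h and no overlap with the pre-SE mice. The other 8 estimates lay between -0.41 for *B2m* and 0.40 for *H2-D1*. Over the 10 genes, 2 had both 6 h mice above both pre-SE mice, 3 had both below and 5 overlapped, where 18.6% of all genes had both above and 31.3% both below.

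The difference between the SE groups was therefore examined directly. From 6 h to 2 days 8 of the 10 genes rose, where 3.14% of all genes were called higher and 1.11% lower, and the median logFC was 2.25 against 0.085 over all genes. *Psmb9* had the largest difference, 4.27 ± 0.41 (limma adjusted p = 0.00172), and *B2m* passed the test here, with a logFC of 3.31 ± 0.76 (limma adjusted p = 0.0391). *H2-D1* had a logFC of 1.82 ± 0.50 (limma adjusted p = 0.0762) and *H2-T23* of 1.20 ± 1.82 (limma adjusted p = 0.748). Fewer of the 10 genes, and fewer of all genes, were called higher without SE 6 h replicate 1, SE 6 h replicate 2, SE 2 days replicate 1 or SE 2 days replicate 2. *Psmb8* and *Psmb9* were called in each of these 4 fits.

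**Figure D2:**
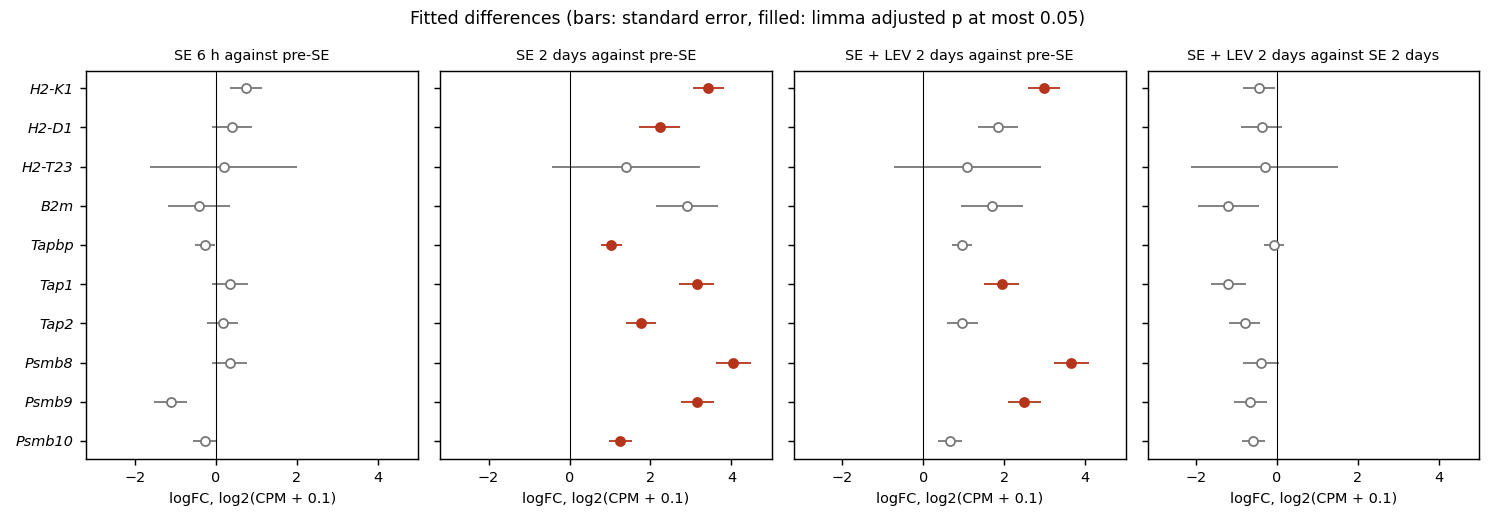
Fitted logFC on the log2(CPM + 0.1) scale with its standard error for the 10 genes in 4 comparisons, with filled red points for limma adjusted p of at most 0.05. Filled points appear for 8 genes in SE 2 days against pre-SE and for 4 in SE + LEV 2 days against pre-SE, and in SE + LEV 2 days against SE 2 days all 10 open points lie below 0.

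LEV treatment for 2 days gave no call among the 10 genes, and limma called 0 of 15851 genes in either direction (background 0%), while 208 higher and 220 lower had an unadjusted p under 0.05. All 10 estimates were below 0, with a median logFC of -0.52 against 0.041 over all genes, and 1 of the 10 had an unadjusted p under 0.05. That gene was *Tap1*, at 1.69 and 1.31 CPM with LEV and 4.88 and 2.58 CPM without, a logFC of -1.20 (95% interval -2.18 to -0.23, limma adjusted p = 1). The LEV mice lay below the SE mice in *Tap1*, *Tap2* and *Psmb9* and overlapped in the other 7, while 12.2% of all genes had both LEV mice below both SE mice. *Tap2* was at 10.8 and 8.91 CPM with LEV, with a logFC of -0.80 (95% interval -1.64 to 0.04), and *Psmb9* was at 6.33 and 5.18 CPM, with a logFC of -0.66 (95% interval -1.57 to 0.25).

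For the classical heavy chains and the light chain the LEV replicates were far apart. *H2-K1* was at 251 and 122 CPM, *H2-D1* at 312 and 102 CPM, and *B2m* at 348 and 51.7 CPM. Replicate 1 lay between the SE 2 days mice in *H2-K1* and above both in *H2-D1* and *B2m*, and replicate 2 was below both in the 3 genes. Replicate 2 was the lowest of the 4 mice at 2 days in all 10 genes, and the median over the 10 genes of its level relative to the pre-SE mean was 1.87-fold, against 6.40-fold in replicate 1 and 5.97-fold and 6.88-fold in the SE 2 days mice. Over all genes this median ran from 0.946 to 1.05 in the same 4 mice. Without replicate 2 the estimates for *H2-K1* (0.07), *H2-D1* (0.42), *H2-T23* (2.11), *B2m* (0.17) and *Tapbp* (0.16) were above 0, and those for *Tap1* (-1.03), *Tap2* (-0.66), *Psmb8* (-0.20), *Psmb9* (-0.52) and *Psmb10* (-0.21) were below it. The intervals of the LEV difference were wide, reaching from -1.33 to 0.42 for *H2-K1*, from -2.90 to 0.49 for *B2m* and from -1.36 to 0.57 for *Psmb8*.

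Set against pre-SE, the SE + LEV 2 days mice had 4 genes called higher, *H2-K1* (logFC 2.98 ± 0.39, limma adjusted p = 0.00432), *Psmb8* (3.65 ± 0.43, 0.00302), *Psmb9* (2.50 ± 0.41, 0.00979) and *Tap1* (1.94 ± 0.44, 0.0447), where 2.83% of all genes were called higher and 0.0189% lower. The median logFC of the 10 genes was 1.77 against 0.018 over all genes, and in 8 genes both mice lay above both pre-SE mice, as they did in 22.6% of all genes. This comparison and that of SE 2 days share the pre-SE mice. When only the SE + LEV 2 days and pre-SE mice were fitted, limma called 0 of all 15851 genes and thus 0 of the 10. Fewer of the 10 genes, and fewer of all genes, were called higher without pre-SE replicate 1, pre-SE replicate 2 or SE + LEV 2 days replicate 1. *Tap1* missed the threshold with 8 of the 10 mice left out in turn (adjusted p up to 0.341). From SE + LEV 6 h to SE + LEV 2 days 3 genes rose, where 2.06% of all genes were called higher and 0.0757% lower. They were *H2-K1* (logFC 2.13), *Psmb8* (3.01) and *Psmb9* (2.46), and none of the 3 was called without SE + LEV 6 h replicate 1 or without SE + LEV 2 days replicate 1. Fewer of the 10 genes were called without SE + LEV 6 h replicate 2 and more without SE + LEV 2 days replicate 2. In these fits the number of all genes called higher moved the same way.

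LEV at 6 h gave no call among the 10 genes either, where 0% of all genes were called higher and 0.0126% lower. *Psmb9* was at 0.80 and 1.14 CPM (24 and 12 tags) with LEV against 0.42 and 0.34 CPM without, a logFC of 1.14 (95% interval 0.23 to 2.05, limma adjusted p = 0.905), and it was the 1 gene of the 10 with an unadjusted p under 0.05. Among all genes tested, 184 with estimates above 0 and 542 below 0 had such a p. The LEV effect at 2 days differed from that at 6 h by -1.81 ± 0.58 in *Psmb9* (limma adjusted p = 1), and limma called 0 of the 15851 genes in that test of the difference, while 251 and 126 genes (above and below 0) had an unadjusted p under 0.05. The SE + LEV 6 h mice gave no call against pre-SE, where 0.315% of all genes were called higher and 0.00631% lower, and *H2-K1* was at 54.0 and 29.5 CPM, both above the pre-SE mice, with a logFC of 0.85 ± 0.39 (limma adjusted p = 0.54). *H2-T23* was at 2.23 CPM in replicate 1 and listed at 0 in replicate 2, the shallowest library, where 3 tags correspond to 0.285 CPM.

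The genes of the constitutive catalytic subunits were set beside their inducible counterparts. *Psmb5*, *Psmb6* and *Psmb7* gave no call by limma at 2 days after SE, with logFC of 0.16 ± 0.25, 0.27 ± 0.20 and 0.14 ± 0.25, and 0 of the 3 had an unadjusted p under 0.05. Within a mouse the ratio of *Psmb8* to *Psmb5* was 0.00667 and 0.00933 before SE, 0.0109 and 0.0197 at 6 h, and 0.152 and 0.0969 at 2 days. With LEV it was 0.00989 and 0.0257 at 6 h and 0.107 and 0.124 at 2 days, so that the SE + LEV 2 days mice lay between the SE 2 days mice. The ratio of *Psmb9* to *Psmb6* was 0.00515 and 0.00429 before SE, lower at 6 h (0.00213 and 0.00162) and higher at 2 days (0.053 and 0.0275), and it was 0.0297 and 0.0241 with LEV at 2 days. The ratio of *Psmb10* to *Psmb7* was 0.241 and 0.292 before SE, 0.226 and 0.205 at 6 h, 0.774 and 0.424 at 2 days and 0.568 and 0.373 with LEV at 2 days. In each of the 3 pairs all 4 mice at 2 days had a higher ratio than both pre-SE mice. These ratios were not tested, and since a CPM is not per length they compare mice and not the amounts of the 2 subunits.

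**Figure D3:**
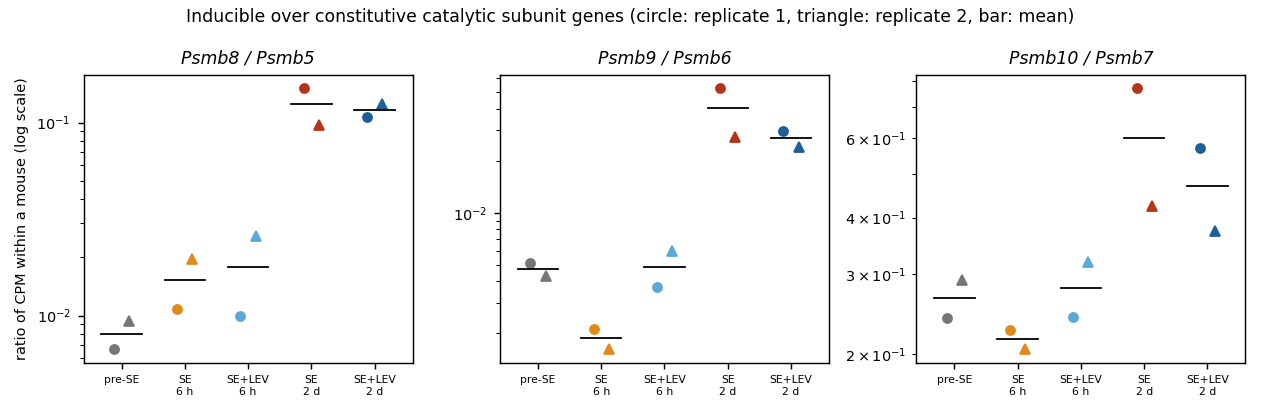
Ratio of the CPM of an inducible to that of the matching constitutive catalytic subunit gene within each mouse, on a log axis (circle, replicate 1, triangle, replicate 2, bar, group mean). All 4 mice at 2 days lie above both pre-SE mice in the 3 panels, for *Psmb8* / *Psmb5* at 0.0969 to 0.152 against 0.00667 and 0.00933.

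The rest of the proteasome gave few calls. Of 11 other 20S core subunit genes 0 were called at 2 days after SE by limma, although all 11 estimates were above 0 (0.20 to 0.71, median 0.48) and 5 had an unadjusted p under 0.05. Among all 15851 genes tested, 1977 with estimates above 0 and 1155 below 0 had such a p at SE 2 days against pre-SE. These counts are the background for each list in that comparison. The 5 genes for activator and assembly factors gave 0 calls and 1 unadjusted p under 0.05 against pre-SE. *Psme1* and *Psme2*, the interferon-inducible PA28 cap of the immunoproteasome, were at 46.9 and 49.8 CPM and at 34.8 and 35.2 CPM before SE and at 91.5 and 78.1 CPM and at 70.9 and 55.6 CPM at 2 days, with logFC of 0.81 ± 0.37 (limma adjusted p = 0.257) and 0.84 ± 0.23 (limma adjusted p = 0.0632). Against SE 6 h both rose, by logFC of 1.65 (limma adjusted p = 0.0358) and 1.15 (limma adjusted p = 0.0232). The 6 genes for trimming and loading of peptides in the endoplasmic reticulum (*Calr*, *Canx*, *Pdia3*, *Erap1*, *Tapbpl* and *Lnpep*) gave 0 calls by limma and 1 unadjusted p under 0.05 at 2 days, with a median logFC of 0.57.

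The heavy chain genes beyond the 3 above behaved unevenly. Of 7 analysed here 4 rose at 2 days after SE, with a median logFC of 1.96. *H2-Q6* and *H2-Q7*, whose products belong to the Qa-2 group, had at most 4 tags in either pre-SE mouse, and stood at 5.64 and 2.72 CPM (133 and 57 tags) and at 4.54 and 3.01 CPM (107 and 63 tags) at 2 days (limma adjusted p = 0.00262 and 0.00167). *H2-Q4* rose from 1.52 and 1.66 CPM to 14.8 and 9.55 CPM (logFC 2.83 ± 0.53, limma adjusted p = 0.0127) and *H2-T24* from 1.14 and 1.41 CPM to 5.60 and 4.87 CPM (logFC 1.96 ± 0.47, limma adjusted p = 0.038). Of 4 class I-like genes 1 rose, *Cd1d1*, which presents lipids to natural killer T cells (logFC 3.29 ± 0.62, limma adjusted p = 0.0123), and the median logFC of the 4 was 0.58.

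*H2-T23* and the neighbouring H2-T genes divided the 4 mice at 2 days in a way that crossed the treatment groups, a pattern singled out after the values were seen. *H2-T23* was at 14.8 CPM in SE 2 days replicate 2 and 13.4 CPM in SE + LEV 2 days replicate 1, and at 0.55 and 0.37 CPM in the other 2 mice. *H2-T22* was high in the same mice, at 4.63 and 5.03 CPM against 0.76 and 1.36 CPM. *H2-T10* was the other way round, at 1.53 and 1.78 CPM in those mice and 5.51 and 3.61 CPM in the others. *H2-T24* was within 3.08 to 7.11 CPM in all 4. At 6 h the library with *H2-T23* at 0, SE + LEV 6 h replicate 2, had the lowest *H2-T22* (0.66 CPM) and the highest *H2-T10* (1.99 CPM) of the 6 mice before 2 days. No test was made of this division, and the means of *H2-T23* in the groups at 2 days should be read with it in view.

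**Figure D4:**
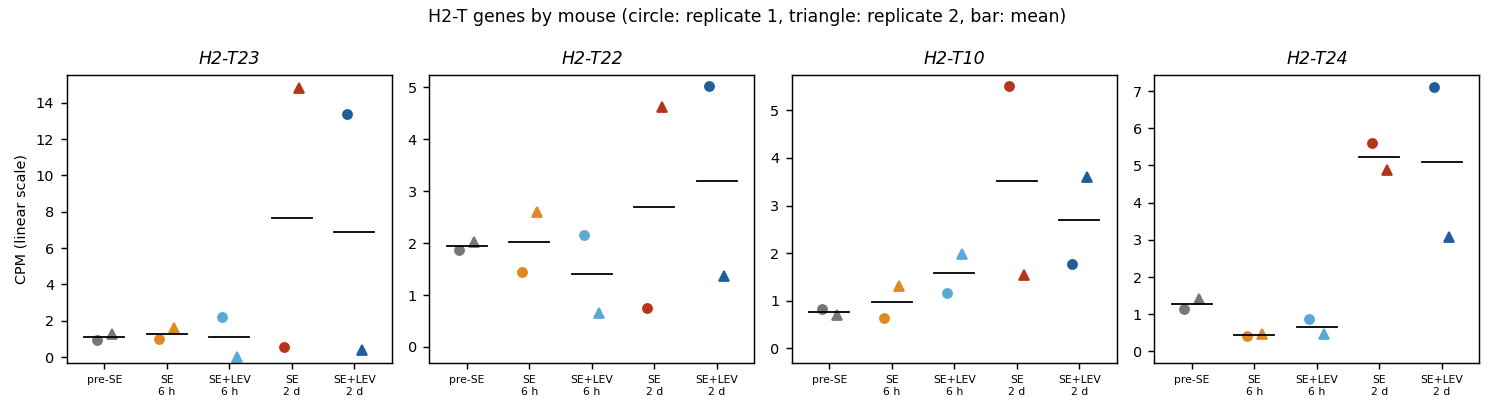
CPM on a linear axis of 4 H2-T genes in each mouse (circle, replicate 1, triangle, replicate 2, bar, group mean). At 2 days *H2-T23* and *H2-T22* are high in SE replicate 2 and SE + LEV replicate 1, and *H2-T10* is high in the other 2 mice.

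Of 12 genes for factors that act on class I promoters 6 rose at 2 days, with a median logFC of 1.16. The other 6 did not pass the test, with logFC of 0.05 for *Irf2*, 0.66 for *Rela*, 0.46 for *Nfkb1*, 0.73 for *Rfxank*, -0.52 for *Rfx5* and -0.28 for *Rfxap*. *Irf7*, a main driver of type I interferon responses, had the largest difference, from 0.93 CPM in both pre-SE mice and 1.96 and 2.06 CPM at 6 h to 83.3 and 38.7 CPM (logFC 5.79 ± 0.41, limma adjusted p = 0.000433). *Irf9*, the DNA-binding part of the ISGF3 complex, rose from 1.59 and 1.08 CPM to 26.6 and 13.5 CPM (logFC 3.76 ± 0.54, limma adjusted p = 0.00362). *Irf8* rose by a logFC of 2.32 ± 0.41 (limma adjusted p = 0.00873) and *Stat3* by 2.18 ± 0.35 (limma adjusted p = 0.0056). *Irf1*, which binds the IRF site of class I promoters, rose from 3.0 and 4.22 CPM to 18.2 and 12.8 CPM (logFC 2.07 ± 0.43, limma adjusted p = 0.0197). *Nlrc5*, the class I transactivator, was not analysed here.

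Of 7 genes for interferon receptors and their signalling 1 rose, *Socs1*, a feedback inhibitor of the pathway (logFC 2.18 ± 0.53, limma adjusted p = 0.04), and the median logFC of the 7 was 0.34. The interferon genes themselves were not analysed here. The 6 MHC class II genes gave 0 calls by limma at 2 days, although 4 had an unadjusted p under 0.05 and the median logFC was 1.83. Among all 15851 genes tested, 1977 with estimates above 0 had such a p. *Cd74*, the class II invariant chain, was at 1.59 and 3.21 CPM before SE and 8.31 and 9.5 CPM at 2 days (logFC 1.93 ± 0.65, limma adjusted p = 0.129). In SE + LEV against SE none of these lists of pathway genes had a limma call at either time, and 0 of their genes had an unadjusted p under 0.05. At 2 days the estimates were -0.89 ± 0.43 for *Irf1*, -0.46 ± 0.41 for *Irf7* and 0.16 ± 0.65 for *Cd74* (limma adjusted p = 1 for each).

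Markers of cells that carry class I molecules moved in the same libraries. In whole hippocampus more cells of a type and more RNA per cell cannot be told apart. The summed level of 6 microglial markers was 165 and 154 CPM before SE, 86.7 and 71.5 CPM at 6 h, 309 and 298 CPM at 2 days and 373 and 357 CPM with LEV at 2 days. Of these 1 rose at 2 days, *Aif1* (logFC 2.28 ± 0.32, limma adjusted p = 0.00303). Of the other 5, *P2ry12* had an estimate below 0 at 2 days (-0.93 ± 0.42, limma adjusted p = 0.256) and 4 had estimates from 0.82 to 1.53. At 6 h *P2ry12* and *Tmem119* fell (-2.51 and -2.50, limma adjusted p = 0.012 and 0.00475). The summed level of 5 markers of infiltrating myeloid cells was 6.17 and 5.76 CPM before SE, 13.3 and 10.5 CPM at 6 h and 38.8 and 75.2 CPM at 2 days, and 3 of them rose at 2 days, *Plac8* (limma adjusted p = 0.00447), *Lyz2* (logFC 3.36 ± 0.76, limma adjusted p = 0.03) and *Ms4a7* (2.69 ± 0.69, 0.0496). With LEV at 2 days this sum was 82.6 CPM in replicate 1 and 23.6 CPM in replicate 2. Replicate 2 was the mouse lowest in all 10 class I and immunoproteasome genes. *Lyz2* made up most of the sum, at 70.8 and 16.7 CPM, and *Ms4a7* was at 6.61 and 1.31 CPM. *Plac8* differed little (3.43 and 2.96 CPM), and *S100a8* (1.21 and 1.6 CPM) and *S100a9* (0.55 and 1.07 CPM) were higher in replicate 2. In the microglial sum SE + LEV 2 days replicate 2 lay above both SE 2 days mice, as it did in *P2ry12*, *Cx3cr1*, *Csf1r* and *Aif1*. It lay below both in *Tmem119* (23.3 against 36.4 and 30.8 CPM) and *Itgam* (17.3 against 20.4 and 24.3 CPM). No marker of either list was at 0 in all libraries of a group, and *Ccr2*, *Ly6c2* and *Itgal* were not analysed here.

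Of 6 astrocytic markers 2 rose at 2 days, *Gfap* (logFC 3.60 ± 0.36, limma adjusted p = 0.000955) and *Aqp4* (1.57 ± 0.29, 0.0107), and their summed level over the 6 ran from 2297 to 2437 CPM before SE and from 3512 to 4936 CPM at 2 days. *Gfap* alone went from 246 and 230 CPM to 2282 and 3642 CPM. The estimates were below 0, and did not pass the test, for *Slc1a2* (-0.93 ± 0.25, limma adjusted p = 0.0614), *Slc1a3* (-0.73 ± 0.25, 0.132) and *Gja1* (-0.98 ± 0.42, 0.227). The 6 neuronal markers gave 0 calls by limma and 1 unadjusted p under 0.05, with sums of 5055 and 5316 CPM before SE and 3260 and 3933 CPM at 2 days. The 6 endothelial markers gave 0 calls and 3 unadjusted p under 0.05 at 2 days, where 1977 of all 15851 genes tested had such a p with estimates above 0. *Cdh5* rose at 6 h (logFC 2.10 ± 0.30, limma adjusted p = 0.00605). T cell, B cell and natural killer cell markers, including the receptors that read class I molecules, were not analysed here. The part of these cell types in the differences of the class I and immunoproteasome genes was not tested.

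**Figure D5:**
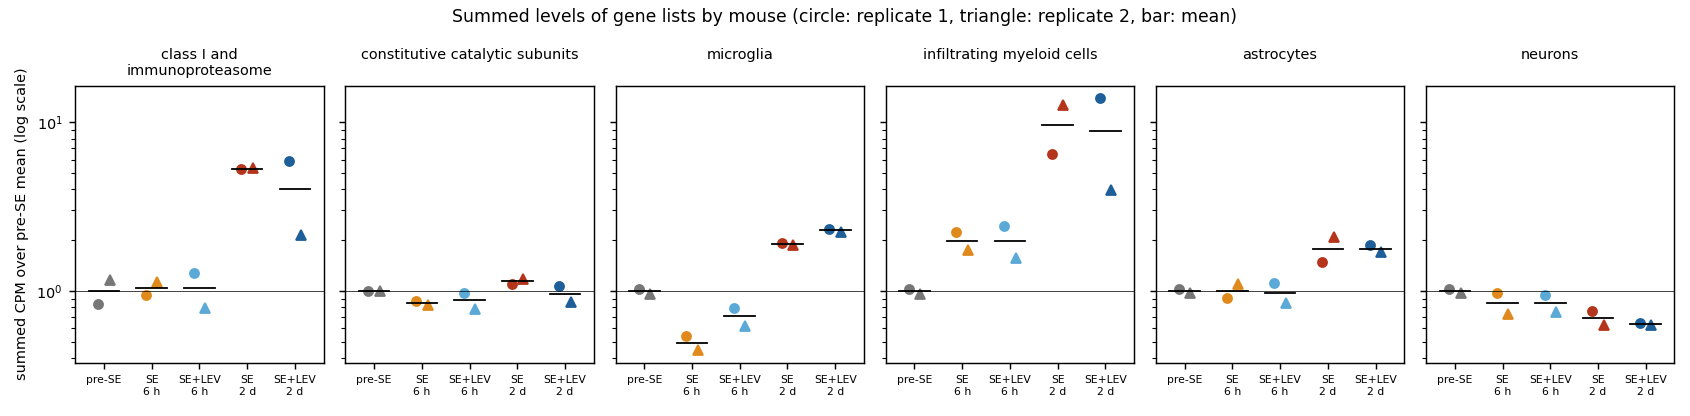
Summed CPM of 6 gene lists in each mouse, divided by the mean of the pre-SE mice, on a log axis (circle, replicate 1, triangle, replicate 2, bar, group mean). The 10 class I and immunoproteasome genes reach 5.25-fold and 5.32-fold at SE 2 days and 5.86-fold and 2.16-fold at SE + LEV 2 days. The infiltrating myeloid list, most of it *Lyz2*, differs between the mice in both groups. It reaches 6.51-fold and 12.6-fold at SE 2 days and 13.9-fold and 3.96-fold at SE + LEV 2 days.

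Across the 10 libraries each gene was compared with the mean of the other 9 (Pearson's r, as a description, since libraries of a group share their condition). *H2-K1*, *Psmb10*, *Tapbp* and *Tap1* were closest to it (0.96, 0.954, 0.953 and 0.951), followed by *H2-D1* (0.944), *B2m* (0.938), *Psmb8* (0.912), *Psmb9* (0.904) and *Tap2* (0.872), and *H2-T23* was far from it (0.469). Among the 14667 genes that reached 1 CPM in 2 or more libraries, those whose pattern was most like the mean of the 10 were *Xaf1*, *Iqgap3* and *H2-Q7* (r = 0.985 each), *Zbp1* (0.981), *Cdca5* (0.98), *Pold4* (0.978), *Bst2* and *Irf9* (0.977 each). *Xaf1*, *Zbp1*, *Bst2* and *Irf9* are known as interferon-induced genes, and *Iqgap3* and *Cdca5* are known from dividing cells.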

How the data were processed

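CAGE tags of 10 hippocampal libraries were mapped by the authors to mm9 with BWA 0.7.17 and HISAT2 2.0.5 and clustered with RECLU. Clusters under 0.1 CPM were discarded, and overlap between replicates was taken with bedtools 2.12.0. The authors name edgeR 3.22.5 as their test. The authors deposited CPM values per gene, and each library is scaled to its total over the table. How clusters were summed to genes, and whether strand was used, is not given in the sources used here. No per-mouse column was left out (0 columns).

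Differences were tested (two-sided) with limma 3.58.1, run in R 4.3.3. Values entered as log2(CPM + 0.1), and a single fit of 5 group means with a mean-variance trend took in all 10 libraries. Genes had to reach 0.1 CPM in 2 or more libraries, which left 15851, and p-values were adjusted over these by the Benjamini-Hochberg method. A pseudocount lowers the logFC of genes with few tags. Genes were called at an adjusted p of at most 0.05. Depth was recovered as the total for which CPM values were whole tags within 0.00501 CPM, and was used for depth and tag numbers only. Separate mice are the replicates. The p-values rest on the spread between mice of a group, pooled over the 5 groups and drawn toward the trend over all genes. They do not measure the spread of the compared groups alone.

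The 10 genes, the gene lists and the comparisons were chosen with earlier results of these data known. All 10 genes are named for SE 2 days against pre-SE. In several other comparisons some of the 10 are covered only by counts, medians or ranges. Of the other lists, *Psmb5*, *Psmb6*, *Psmb7*, *Psme1*, *Psme2*, *Nlrc5*, *Irf1* and *Cd74* are named, with up to 4 genes a list of the largest logFC among those called at SE 2 days against pre-SE, and the 8 genes most like the 10. Other genes were named after their values were seen. A few genes of the lists are not reported here, and counts and sums leave them out. Alternatives were pseudocounts of 0.01, 0.5 and 1, other filters, median-of-ratios rescaling, a replicate block, no trend, fits of only the groups compared and leaving out each mouse. Promoter sequences are from RefSeq. Figures were made with Python 3.11.15 and matplotlib 3.10.9.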

Additional observations from a re-analysis of the deposited data

Results flagged for a closer look

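The response to SE at 2 days differed from that at 6 h in 8 of the 10 class I and immunoproteasome genes, by the test of the difference itself, which is SE 2 days against SE 6 h because both share the pre-SE mice. The logFC was 4.27 for *Psmb9*, 3.71 for *Psmb8*, 3.31 for *B2m*, 2.79 for *Tap1*, 2.68 for *H2-K1*, 1.59 for *Tap2*, 1.52 for *Psmb10* and 1.30 for *Tapbp* (limma adjusted p = 0.00172, 0.00285, 0.0391, 0.00791, 0.00624, 0.0449, 0.0177 and 0.0202). Over all genes 3.14% were called higher in this test and 1.11% lower. Each of the 8 estimates was above 0 with any 1 of the 10 mice left out. The calls of *H2-K1*, *B2m*, *Tap1*, *Tap2*, *Tapbp* and *Psmb10* were lost in some of these fits, and those of *Psmb8* and *Psmb9* in none. In all 8 genes both SE 2 days mice lay above both SE 6 h mice, as they did in 31.0% of all genes.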

How the results depend on the processing

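The count of the 10 genes called higher at SE 2 days against pre-SE was 8, and it was 5 without a mean-variance trend and 4 to 9 with a mouse left out. At SE + LEV 2 days against pre-SE 4 were called, with 0 when only these groups were fitted (and 0 of all genes) and 2 to 5 with a mouse left out. From SE + LEV 6 h to SE + LEV 2 days 3 were called, with 1 when only these groups were fitted and 0 to 5 with a mouse left out, and from SE 6 h to SE 2 days 8 were called, with 2 to 9 with a mouse left out. The remaining pseudocounts, filters, scalings and fits kept these counts within 1.5 times, and the count stayed at 0 for the other comparisons. Estimates that changed sign with a mouse left out ran, at SE 6 h against pre-SE, from -0.119 to 0.505 for *H2-T23*, from -1.01 to 0.19 for *B2m* and from -0.21 to 0.56 for *Tap2*. For *H2-T23* they ran from -0.87 to 3.66 at SE 2 days against pre-SE, from -1.33 to 3.51 at SE + LEV 2 days against pre-SE and from -1.06 to 3.46 at SE 2 days against SE 6 h. At SE + LEV 2 days against SE 2 days they ran from -0.977 to 0.071 for *H2-K1*, from -1.19 to 0.42 for *H2-D1*, from -2.73 to 2.11 for *H2-T23*, from -2.58 to 0.17 for *B2m* and from -0.30 to 0.16 for *Tapbp*. Leaving out a mouse leaves fewer degrees of freedom and a group of 1, which is taken to vary like the others. Counts over all genes also moved with the mouse left out, and the cause of other lost calls was not tested.

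With the replicate number as a block, 8 of the 10 genes were called at SE 2 days against pre-SE, 4 at SE + LEV 2 days against pre-SE, 8 from SE 6 h to SE 2 days and 3 from SE + LEV 6 h to SE + LEV 2 days, so no count moved, and over all genes 715 in place of 803 were called higher at SE 2 days. Deviations of same-numbered mice correlated by -0.44 to 0.34 over the comparisons, the numbers mark different animals, and they were not taken as pairs. With the numbers crossed, an alternative chosen after seeing the data, 0 of the 10 genes were called at SE + LEV 2 days against SE 2 days and 4 against pre-SE. The planned edgeR and DESeq2 tests on recovered tags were not run, because not every library passed the stricter rule for treating recovered tags as counts. A depth near 10540698 tags leaves levels under 0.285 CPM at or below 3 tags in the shallowest library, which touches *Tap1* and *H2-T23* at 6 h.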

Other observations

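Ratios between genes of the pathway were taken within each mouse. The ratio of *Tap1* to *Psmb9*, which start from the same stretch of chromosome 17 in opposite directions, stood at 0.309 and 0.367 before SE, 1.07 and 1.21 at SE 6 h, 0.538 and 0.246 at SE + LEV 6 h, 0.408 and 0.370 at SE 2 days and 0.267 and 0.253 at SE + LEV 2 days. The SE 6 h values rest on 5 to 14 tags for each gene. The ratio of *H2-K1* to *H2-D1* was 0.461 and 0.426 before SE, 0.6 and 0.532 at SE 6 h, 0.815 and 0.810 at SE + LEV 6 h, 1.15 and 0.920 at SE 2 days and 0.805 and 1.19 at SE + LEV 2 days, so that every mouse after SE lay above both pre-SE mice. The ratio of *H2-K1* to *B2m* was 0.665 and 0.430 before SE, 0.853 and 1.68 at SE 6 h, 1.32 and 1.81 at SE + LEV 6 h, 0.674 and 0.889 at SE 2 days, and 0.723 and 2.35 at SE + LEV 2 days. None of these ratios was tested.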
